A study of Mus musculus with 4 samples.

Results

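The cassette exons of Insr, Tsc2 and Map2k7 were followed in mouse endothelial cells (ECs) with and without overexpression of the splicing regulator NOVA2. The members are all events of the deposited splicing table listed under these gene symbols, which came to 3 of 1075 events, 1 cassette exon in each gene. They were chosen by their place in that table, which the authors had filtered on the very difference described here, so that their inclusion levels are given as a description and no test of that difference was made. RNA-seq was done on total RNA of 4 libraries, 2 of ECs transduced with a lentivirus carrying the control HA vector and 2 of ECs transduced with pLenti-GIII-CMV carrying human NOVA2 with an HA tag, for stable expression from the CMV promoter. Both were kept under puromycin in the same medium with EC growth supplement. The overexpressing cells were grown sparse, and the density of the control cells is not stated. Neither the labels nor the methods say whether the lines were clones or pools or whether the 2 libraries of a group came from separate cultures, so the SD given here may be technical. The endothelial identity of the cells and the level of NOVA2 were not analysed here, because the table holds splicing events and no gene expression.

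INSR is the receptor tyrosine kinase for insulin, and skipping or inclusion of the exon studied here makes its IR-A or IR-B form, of which IR-A also binds insulin-like growth factor II well. TSC2, also known as tuberin, works with TSC1 as the GTPase-activating protein of RHEB and so acts as a brake on the TOR complex that drives cell growth, and kinases downstream of the insulin receptor phosphorylate it. MAP2K7, or MKK7, is a kinase that activates the JNK group of MAP kinases and binds them through docking motifs in its N-terminal part. NOVA2 is an RNA-binding protein known from neurons and present in ECs, and it binds the tetramer YCAY, where Y is a pyrimidine. The position of the bound tetramers matters for NOVA proteins: binding downstream of an exon tends to raise its inclusion, and binding elsewhere near it tends to lower it.

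Each of the exons lies in coding sequence and has a length that is a multiple of 3, as had 289 of the 549 deposited cassette exons (52.6%). The Tsc2 exon is 129 nt long and lies on the minus strand of chromosome 17 (mm9, chr17:24743169-24743297). It codes for 43 codons and was included in 5 and skipped in 2 of the coding transcripts of the GENCODE annotation that cover it. The Map2k7 exon is 48 nt long, on the plus strand of chromosome 8 (chr8:4240688-4240735), and codes for 16 codons. It is the second exon of the transcripts that include it. Of the coding transcripts 3 include it, 2 skip it and others do neither. The Insr exon is the shortest, with 36 nt or 12 codons on the minus strand of chromosome 8 (chr8:3181702-3181737), and it is longer than only 7.48% of the 548 deposited cassette exons that could be placed on the genome sequence. The annotated full-length Insr transcript skipped it, where it would be exon 11, and the only annotated transcript with it was a fragment of 5 exons. In the frame of the annotation none of these exons held a stop codon, and no other annotated gene overlapped them or the introns beside them. The exons are shown in capitals with the 80 nt of intron on either side in lower case, 5′ to 3′ on the strand of the gene, because they are the sequences whose inclusion was measured.
Tsc2: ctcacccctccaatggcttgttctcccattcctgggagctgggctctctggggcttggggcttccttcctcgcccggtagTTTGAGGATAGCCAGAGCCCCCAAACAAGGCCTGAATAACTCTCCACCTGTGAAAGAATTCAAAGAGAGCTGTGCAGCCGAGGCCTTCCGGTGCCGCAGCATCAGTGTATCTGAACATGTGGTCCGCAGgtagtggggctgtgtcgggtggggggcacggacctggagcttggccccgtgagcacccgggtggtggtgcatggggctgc
Map2k7: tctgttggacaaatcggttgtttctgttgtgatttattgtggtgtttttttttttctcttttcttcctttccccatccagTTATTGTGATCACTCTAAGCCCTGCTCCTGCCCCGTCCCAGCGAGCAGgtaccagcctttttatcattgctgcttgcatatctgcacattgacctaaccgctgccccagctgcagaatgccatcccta
Insr: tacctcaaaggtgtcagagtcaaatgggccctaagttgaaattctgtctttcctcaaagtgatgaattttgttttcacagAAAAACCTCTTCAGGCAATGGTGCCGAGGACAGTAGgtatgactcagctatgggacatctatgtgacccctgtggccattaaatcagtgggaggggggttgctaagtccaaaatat
Each of these exons is preceded by AG and followed by GT. The exon after that of Tsc2 has a pair of acceptors 3 nt apart in the deposited event, and skipping reads to either were counted together.

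Inclusion was measured as the deposited PSI, an estimate of the percent of transcripts with the exon among those that include or skip it. It comes from corrected reads and is not the plain share of junction reads, because an included transcript can give reads at both junctions. In control ECs the Tsc2 exon was mostly included, the Map2k7 exon was close to evenly included and skipped, and the Insr exon was mostly skipped, and this order was kept in NOVA2-overexpressing ECs. The PSI was lower in NOVA2-overexpressing ECs for Tsc2, by 17.1 points, and for Map2k7, by 9.04 points, and it was higher for Insr, by 14.8 points. As the RNA came from whole cultures, a moderate difference in all cells and a large one in some of them cannot be told apart. For every one of these exons both libraries of a group lay on the same side of both libraries of the other, as the filter of the table required. Tsc2 and Insr exceeded an absolute difference of 10 points, the threshold of the study, as did 53.1% of all deposited events. At this threshold 20.1% of the deposited events had a lower PSI, as Tsc2 had, and 33.0% a higher one, as Insr had. These shares cover events of every class. All 215 events of alternative splice sites were higher and 0 were lower. More use of a site means less use of another in the same event, so the direction of these events is not informative. Among cassette exons, counted at any size of difference, lower PSI was the more common, with 344 lower and 205 higher.

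**Figure D1:**
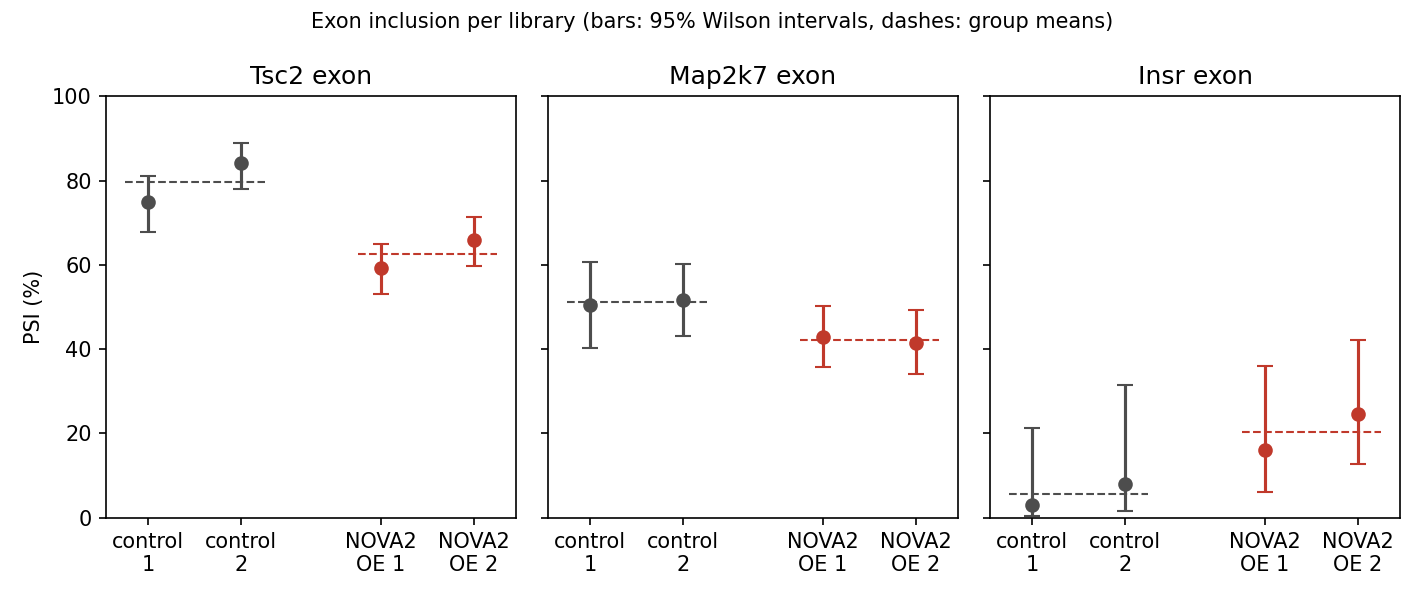
PSI in percent (y axis) of the Tsc2, Map2k7 and Insr exons in each library (x axis), with 95% Wilson intervals of the reads as bars and the group means as dashed lines. The Tsc2 and Map2k7 points lie lower in the NOVA2-overexpressing libraries and the Insr points higher, and the Insr intervals are the widest.

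The Tsc2 exon had the most reads of the members. Its PSI was 75.0% and 84.3% in control replicates 1 and 2, and 59.2% and 65.9% in NOVA2-overexpressing replicates 1 and 2. Both control libraries were thus the higher ones. The group means were 79.6% ± 6.55 (SD, n = 2) for control and 62.5% ± 4.72 (SD, n = 2) for NOVA2-overexpressing ECs, which corresponds to 20.4% and 37.5% of transcripts without the exon. The nearest libraries of the 2 groups were 9.12 points apart, about as far as the control replicates from each other (9.26 points) and farther than the NOVA2-overexpressing replicates (6.67 points). Of the 4 pairs of 95% Wilson intervals across groups only 1 overlapped, that of control replicate 1 (67.8% to 81.1%) with NOVA2-overexpressing replicate 2 (59.9% to 71.4%).

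The junction reads of Tsc2 told the same as its PSI. Skipping was seen in 40 and 27 reads in the control libraries and in 103 and 87 reads in the NOVA2-overexpressing libraries. Inclusion was counted at both ends of the exon, in 129 and 111 reads in control replicate 1, 154 and 135 in control replicate 2, 148 and 151 in NOVA2-overexpressing replicate 1 and 194 and 142 in NOVA2-overexpressing replicate 2, the upstream junction first. The NOVA2-overexpressing libraries had more reads at the skipping and downstream junctions than the control libraries, and they also held more reads in all. With the upstream junction alone as the measure of inclusion the PSI was 16.7 points lower in NOVA2-overexpressing ECs, and with the downstream junction alone 17.7 points lower.

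For Map2k7 the libraries of a group lay close together. The PSI was 50.6% and 51.8% in control replicates 1 and 2 and 42.8% and 41.5% in NOVA2-overexpressing replicates 1 and 2. The group means were 51.2% ± 0.863 (SD, n = 2) for control and 42.1% ± 0.919 (SD, n = 2) for NOVA2-overexpressing ECs, and the nearest libraries of the groups were 7.78 points apart. Transcripts without the exon, which lack codons in the part for the N terminus of the kinase, were 48.8% in control ECs and 57.9% in NOVA2-overexpressing ECs. Which form was the major one in control ECs was not settled. The 95% Wilson intervals of both control libraries reached from below to above an even share. By the upstream junction alone the control PSI was 45.0% and 43.0%, with the form without the exon as the major one. Its replicates agreed more closely than their read numbers require, since each 95% Wilson interval was wide. All 4 pairs of intervals across groups overlapped, for example that of control replicate 1 (40.4% to 60.7%) with NOVA2-overexpressing replicate 1 (35.7% to 50.2%).

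The ends of the Map2k7 exon were not covered alike. Upstream and downstream inclusion junctions had 36 and 54 reads in control replicate 1, 46 and 85 in control replicate 2, 56 and 95 in NOVA2-overexpressing replicate 1 and 58 and 71 in NOVA2-overexpressing replicate 2, so that the downstream junction had more reads in all 4 libraries. Skipping reads numbered 44 and 61 in the control and 101 and 91 in the NOVA2-overexpressing libraries. With the upstream junction alone the PSI was 45.0% and 43.0% in control ECs against 35.7% and 38.9% in NOVA2-overexpressing ECs, and with the downstream junction alone 55.1% and 58.2% against 48.5% and 43.8%. The groups did not overlap at either junction, and the difference was -6.70 points from the upstream and -10.5 points from the downstream one. Whether these sizes differ beyond counting error was not tested.

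**Figure D2:**
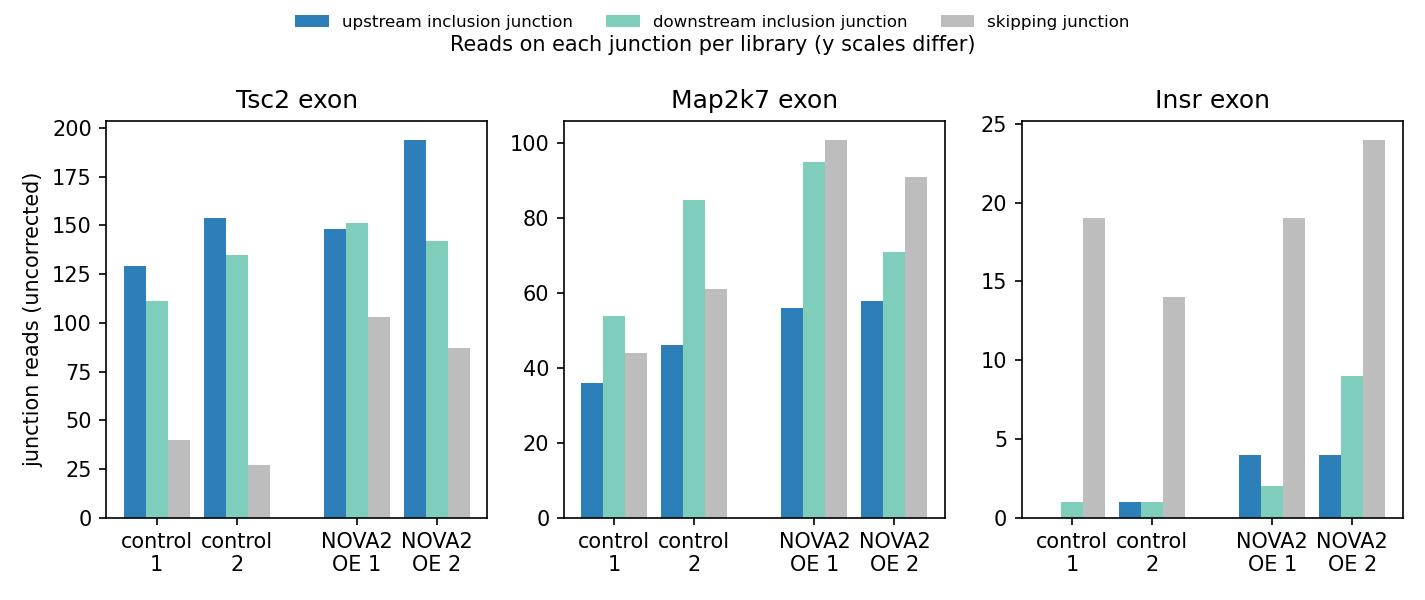
Uncorrected reads (y axis, with its own scale for each exon) on the upstream inclusion, downstream inclusion and skipping junctions of the Tsc2, Map2k7 and Insr exons in each library (x axis). Skipping reads of Tsc2 are 40 and 27 in control and 103 and 87 in NOVA2-overexpressing ECs, and the Insr exon rests on at most 2 inclusion reads in a control library.

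Of the members, Insr had the lowest level and the fewest reads, and it was the one with a higher PSI in NOVA2-overexpressing ECs. Its PSI was 3.09% and 7.96% in control replicates 1 and 2 and 16.0% and 24.6% in NOVA2-overexpressing replicates 1 and 2. The group means were 5.52% ± 3.44 (SD, n = 2) for control and 20.3% ± 6.10 (SD, n = 2) for NOVA2-overexpressing ECs, and the skipping form, IR-A, was the major one in both, at 94.5% and 79.7%. The nearest libraries of the groups were 8.04 points apart and the NOVA2-overexpressing replicates 8.63 points.

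The reads behind Insr were few enough to be named singly. Inclusion reads at both junctions together were 1 and 2 in control replicates 1 and 2 and 6 and 13 in NOVA2-overexpressing replicates 1 and 2, beside 19 and 14 skipping reads in the control and 19 and 24 in the NOVA2-overexpressing libraries. The upstream and downstream junctions had 4 and 2 inclusion reads in NOVA2-overexpressing replicate 1 and 4 and 9 in NOVA2-overexpressing replicate 2. With the upstream junction alone the PSI was 0% and 6.67% in control ECs against 17.4% and 14.3% in NOVA2-overexpressing ECs. With the downstream junction alone it was 5.00% and 6.67% against 9.52% and 27.3%. These gave differences of 12.5 and 12.6 points, against 14.8 from the deposited PSI. In control replicate 1 the upstream junction had 0 inclusion reads beside 19 skipping reads, which allows a share of up to 15.8%. The 95% Wilson intervals were 0.375% to 21.2% and 1.60% to 31.5% for control replicates 1 and 2, and 6.04% to 36.1% and 12.8% to 42.2% for NOVA2-overexpressing replicates 1 and 2, and all 4 pairs across groups overlapped. These intervals and limits cover counting error only. The software that made the table, vast-tools, gave Insr its lowest coverage score, VLOW, in control replicate 2, LOW in control replicate 1 and NOVA2-overexpressing replicate 1 and OK in NOVA2-overexpressing replicate 2. Its balance code marked the ends of the exon as unequally covered in both NOVA2-overexpressing libraries. Tsc2 and Map2k7 had its highest score, SOK, in all 4 libraries. Only 2.00% of the deposited cassette exons had fewer reads than Insr in their shallowest library, against 69.6% for Map2k7 and 84.5% for Tsc2.

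Set among the deposited cassette exons, Tsc2 and Insr had differences above the median and Map2k7 below it. The median absolute difference was 10.3 points over the 549 cassette exons. Among the 344 exons that were less included in NOVA2-overexpressing ECs, Tsc2 ranked at place 43 by size and Map2k7 at place 223. Insr ranked at place 27 of the 205 with higher PSI. For 82.5% of the cassette exons the gap between the nearest libraries of the 2 groups was wider than the difference between the replicates of either group. Map2k7 was among these, and Tsc2 and Insr were not. The smallest gap of any deposited event was 5.01 points, while the gap was 9.12 points for Tsc2, 8.04 for Insr and 7.78 for Map2k7, and events outside the filter were not analysed here.

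**Figure D3:**
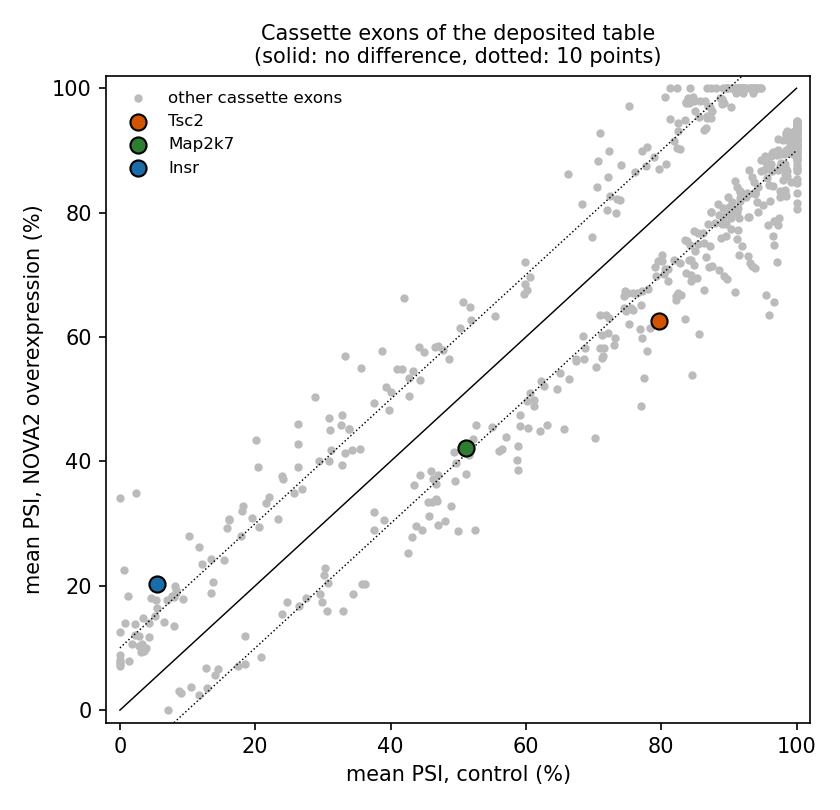
Mean PSI in percent of each deposited cassette exon in control ECs (x axis) and NOVA2-overexpressing ECs (y axis), with the members as large coloured points and a band along the diagonal left empty by the authors' filter. Tsc2 lies below the dotted line of 10 points, Map2k7 just above that line, and Insr above the upper one at the low end.

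The exons most like each member in PSI were sought by the distance over the 4 libraries among the other cassette exons. Nearest to Map2k7 was an exon of 53 nt in Atg7, an autophagy gene, at 1.85 points, followed by exons of Rhot1, a mitochondrial GTPase, at 3.59 points and of Snx11, a sorting nexin, at 4.03 points. Nearest to Tsc2 were exons of Pld2, a phospholipase, at 7.12 points, of Mpzl1, a membrane glycoprotein, at 8.60 points and of Arhgef7, an exchange factor for small GTPases, at 9.30 points. To Insr an exon of 58 nt in Ttc7 was nearest, at 3.91 points, then one listed under C85492, at 7.84 points, and one of 25 nt listed under a symbol that a spreadsheet had turned into a date, at 7.85 points. Of the exons close to Insr the first and second also rested on few reads, 18 to 50 and 13 to 34 per library. The Pld2 exon, nearest to Tsc2, had 26.0 to 100 reads per library and the lowest coverage score in a library. The likeness is one of level in 4 libraries and says nothing of shared function.

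The sequence around the exons was searched for YCAY, that is CA with a C or T on each side, on the strand of the gene and with overlapping matches counted. The 200 nt of intron before the exon held 6 matches for Tsc2, 7 for Map2k7 and 2 for Insr, where the median deposited cassette exon had 3. At least 6 matches were found in 17.9% and at least 7 in 12.0% of the 468 deposited cassette exons whose introns were 200 nt or longer, and at least 2 in 82.7%. These counts depended on the window. In the 100 nt next to the exon Tsc2 had 2 matches, as many as the median, and 53.0% of the cassette exons had at least as many. Map2k7 had 1 match there, below the median of 2, and 80.6% had at least as many. The exons themselves held 1 match in Tsc2, 1 in Map2k7 and 0 in Insr. The 200 nt after the exon held 0 matches for Tsc2, 4 for Map2k7 and 3 for Insr, and at least 4 were found in 41.0% and at least 3 in 62.2% of the cassette exons. The intron sequence before the exon is shown for Tsc2 and Map2k7, the members less included in NOVA2-overexpressing ECs, and that after the exon for Insr, the member with higher PSI, with the matches in capitals. The other sides are given as counts only, and Map2k7, with lower PSI, had 4 matches after its exon against 3 for Insr. A role of motif position was not tested.
Tsc2, chr17:24743298-24743497, minus strand: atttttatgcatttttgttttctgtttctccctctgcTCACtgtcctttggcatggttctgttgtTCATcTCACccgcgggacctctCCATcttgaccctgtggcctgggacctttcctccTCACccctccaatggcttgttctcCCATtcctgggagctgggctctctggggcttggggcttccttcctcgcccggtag
Map2k7, chr8:4240488-4240687, plus strand: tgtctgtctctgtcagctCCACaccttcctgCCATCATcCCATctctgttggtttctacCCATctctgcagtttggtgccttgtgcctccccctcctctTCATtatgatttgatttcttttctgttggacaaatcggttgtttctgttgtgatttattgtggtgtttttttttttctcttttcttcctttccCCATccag
Insr, chr8:3181502-3181701, minus strand: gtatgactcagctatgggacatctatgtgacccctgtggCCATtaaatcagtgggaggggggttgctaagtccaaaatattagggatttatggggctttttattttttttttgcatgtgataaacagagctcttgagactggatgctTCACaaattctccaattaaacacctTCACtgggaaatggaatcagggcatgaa
In Tsc2 the matches began between 163 and 55 nt before the exon. In Map2k7 5 of the 7 matches began between 182 and 141 nt before it, a pair of which overlapped, and the last one 8 nt before it. In Insr the matches after the exon began 40, 148 and 173 nt into the intron. A match is a run of letters and no measurement of binding. All exons compared had passed the filter on the NOVA2 difference, so the shares say nothing of exons in general.

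**Figure D4:**
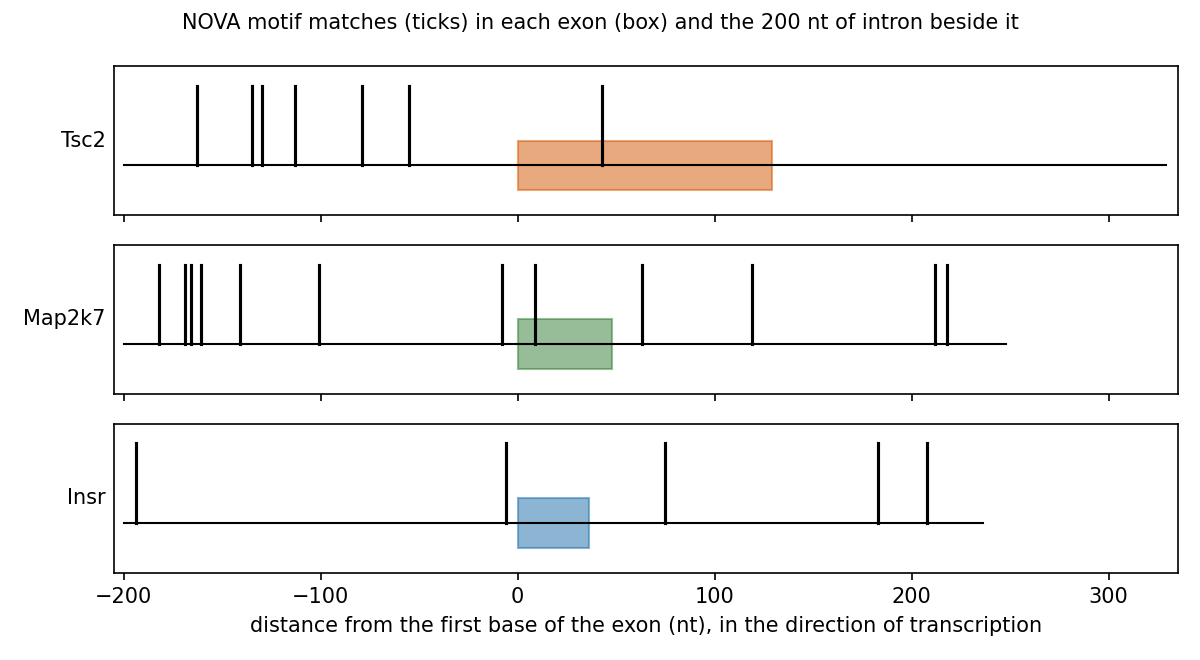
Matches to the NOVA motif (ticks) in each member exon (box) and 200 nt of intron on each side, by distance in nt from the first base of the exon (x axis). Tsc2 has 6 matches before the exon and 0 after it, Map2k7 7 and 4, and Insr 2 and 3.

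Further events were looked up in 3 lists of genes, of insulin receptor signalling (55 genes), of the TOR pathway (73 genes) and of the JNK pathway (56 genes). Over the lists 22 of 184 genes had an event in the table, with 29 events in all, 17 of higher and 12 of lower PSI in NOVA2-overexpressing ECs. An absolute difference of at least 10 points was reached by 17 of them, 11 higher and 6 lower, which is near the share of 53.1% over all deposited events. Without events in which a library had the lowest coverage score, 5 were higher and 6 lower. Their median absolute difference was 10.8 points, against 10.3 points over all deposited events. The 20 cassette exons among them were 9 higher and 11 lower. Of the 5 retained introns 4 were higher. All 4 alternative splice sites were higher, as were all 215 splice-site events of the table, so their direction is not informative here. In 6 of the 29 events a library had the lowest coverage score. Events outside the table were not used here, so nothing is said of the other genes of the lists.

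In the insulin receptor list, 12 events lay in 7 genes, 6 higher and 6 lower, and 10 reached the threshold. Adaptors that receive the signal of the receptor had the best covered of them. An exon of 54 nt in Shc1, an adaptor that links receptor tyrosine kinases to RAS, was included at 98.3% and 98.7% in control ECs and at 83.0% and 82.2% in NOVA2-overexpressing ECs, 15.9 points lower. In Sh2b1, an adaptor that binds the insulin receptor, an exon of 100 nt was included at 60.1% and 60.5% in control ECs and at 45.3% and 45.4% in NOVA2-overexpressing ECs. The nearest libraries of the groups stood 15.3 points apart for Shc1 and 14.7 points for Sh2b1, more than for Tsc2, Insr or Map2k7, with 513 or more reads in every library.

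In other genes of this list the differences went both ways or rested on fewer reads. In Cblb, a ubiquitin ligase of receptor tyrosine kinases, an exon of 147 nt was included in all reads of both control libraries, where a mean of 87 and 97.5 reads over its 2 inclusion junctions allows up to 3.45% and 3.08% skipping, and at 85.5% and 91.4% in NOVA2-overexpressing ECs. A second exon of Cblb, of 132 nt, was 12.2 points higher. In Igf1r, the receptor closest to INSR and named after its values were seen, an alternative acceptor of 3 nt was used at 0% and 8.93% in control ECs and at 19.7% and 16.5% in NOVA2-overexpressing ECs, with the lowest coverage score in both control libraries. The 0% rested on 16 reads, which allow a share of up to 18.8%, above the value of NOVA2-overexpressing replicate 2.

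In the TOR list, 8 events lay in 7 genes, and Tsc2 was the one with lower PSI while the other 7 were higher. Of its 5 cassette exons 4 were higher and 1, that of Tsc2, was lower. The rest were 2 retained introns and 1 splice-site event, and no deposited splice-site event was lower. Tsc1, whose product is the partner of TSC2 in the same complex, had an alternative acceptor used at 9.38% and 19.6% in control ECs and at 31.7% and 28.6% in NOVA2-overexpressing ECs, 15.6 points higher. It rested on 32 to 60 reads per library, and the control replicates were 10.2 points apart. In Rragb, a GTPase that brings TOR to the lysosome, an exon of 84 nt was included at 5.71% and 8.11% in control ECs and at 20.6% and 14.7% in NOVA2-overexpressing ECs. In both genes the minor form was more frequent in NOVA2-overexpressing than in control ECs and remained the minor one.

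In the JNK list, 9 events lay in 8 genes, 4 higher and 5 lower, and 3 reached the threshold. Of its 6 cassette exons 4 were lower, Map2k7 among them, and all 6 lay between 5.55 and 11.5 points in absolute difference. In Map4k4, a kinase that acts upstream of JNK, an exon of 192 nt was included at 74.9% and 69.5% in control ECs and at 60.9% and 60.5% in NOVA2-overexpressing ECs, 11.5 points lower, on 710 to 1198 reads per library. The other events past the threshold, a retained intron of Mapk8 and an acceptor of Mapk8ip1, both named after their values were seen, had the lowest coverage score in their control libraries.

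**Figure D5:**
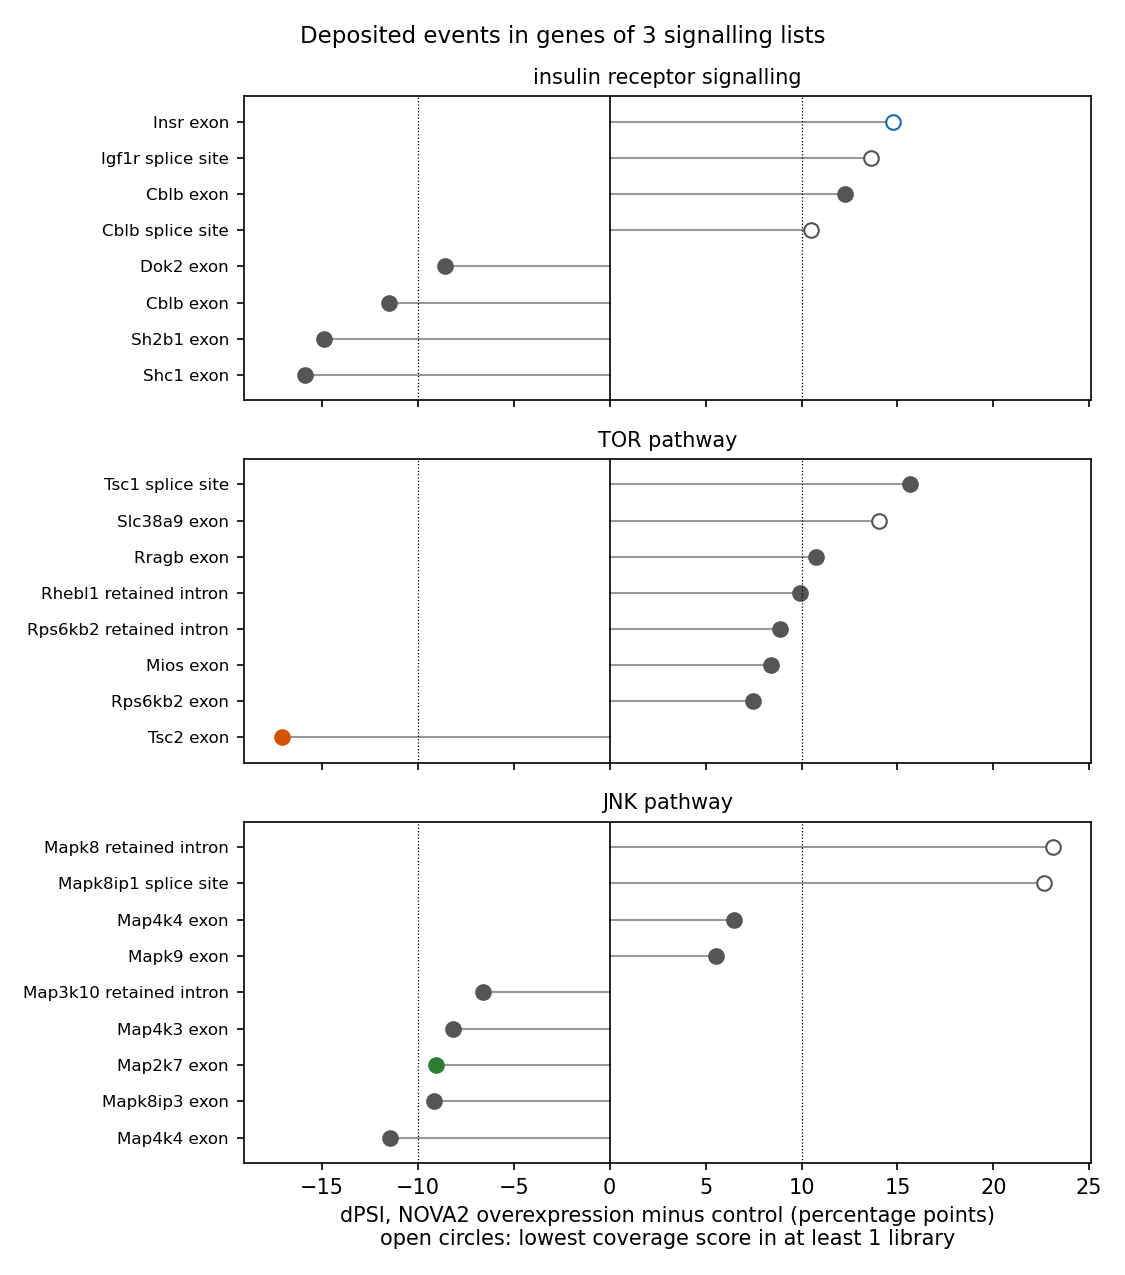
Difference in PSI between NOVA2-overexpressing and control ECs in percentage points (x axis) for 25 of the 29 deposited events of the insulin receptor, TOR and JNK lists, with dotted lines at 10 points and open circles where a library had the lowest coverage score. Tsc2 is the only TOR event to the left of 0, at 17.1 points lower.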

How the data were processed

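Total RNA libraries of control and NOVA2-overexpressing ECs, 2 of each, were sequenced by the authors as paired-end reads and aligned to the mm9 assembly with vast-tools, whose version is not given in the sources used here. The deposited table gives PSI as a percent per library, with the reads on each junction and reads corrected for mappability. The authors kept events with a difference of more than 5 points between the libraries of the groups. Their column of differences was not used, nor were 12 further columns of values per sample. Over the deposited events the libraries held 124374 to 193436 reads, the controls fewer than the others.

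Differences are mean PSI of NOVA2-overexpressing minus control ECs. The 95% Wilson interval was set around the deposited PSI with the mean of both inclusion junctions plus the skipping reads as its read number, because an included transcript can give reads at both junctions. With 2 libraries against 2, an exact two-sided permutation test cannot give a p below 0.333, and no test of the difference was made. The members and gene lists were chosen with earlier results of these data known. Named genes are the members, list events with an absolute difference of at least 10 points in which no library scored below LOW, and the 3 exons nearest to each member, and genes outside this rule are marked as named after their values were seen. The events of 1 gene of the insulin receptor list are in the counts but not reported here singly. Exon sequences and annotation are from NCBIM37, which is mm9, and GENCODE vM1, and as a check 545 of 548 cassette exons were preceded by AG. The computation of PSI, intervals and motif counts was tested on simulated data. Alternatives changed the reads, the junctions, the libraries, the threshold, the coverage filter, the window and the distance. Python 3.11.15, numpy 2.4.6, pandas 2.3.3, scipy 1.17.1 and matplotlib 3.10.9 were used.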

Additional observations from a re-analysis of the deposited data

How the results depend on the processing

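The direction of Tsc2, Map2k7 and Insr was kept in each of the 27 alternatives run for them, among them the PSI of the replicates run together by the authors, chosen after seeing the data. Leaving out 1 library gave differences of -21.7 to -12.5 points for Tsc2, -9.69 to -8.39 for Map2k7 and 10.5 to 19.1 for Insr. The filter had kept only events whose groups did not overlap. Leaving out a library or summing the reads of a group could therefore not reverse a direction. For Map2k7 the difference was -6.70 points with the upstream junction alone and -10.5 points with the downstream junction alone, a move beyond the SD of its replicates. The count of list events past the threshold went from 11 to 3 higher and from 6 to 3 lower at 15 points, and from 11 to 5 higher, with 6 lower as before, when events in which any library scored VLOW were left out, both by construction. With 100 nt of intron on each side the YCAY density around the Map2k7 exon was 1.61 per 100 nt, against 2.68 with 200 nt, and the matches before the exon went from 7 to 1 for Map2k7 and from 6 to 2 for Tsc2. Under the distance in log2 read ratios, 2 of the 3 nearest exons were shared for Insr, 2 for Tsc2 and 3 for Map2k7. No paired analysis was possible because the results come from no test, and replicates with the same number did not deviate together over the 1075 events (correlation 0.00386). As a description, the differences between libraries numbered 1 and 2 were -15.8 and -18.4 points for Tsc2, -7.78 and -10.3 for Map2k7 and 12.9 and 16.7 for Insr. Depth limits Insr most, with 16 to 37 reads per library.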

Other observations

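The following events of the 3 lists lay below the threshold of 10 points, and their genes are named after their values were seen. In Rps6kb2, a ribosomal S6 kinase that TOR activates, an exon of 140 nt was included at 2.20% and 4.23% in control ECs and at 9.80% and 11.5% in NOVA2-overexpressing ECs, and a retained intron of the same gene was at 22.0% and 17.6% against 29.5% and 27.9%. In Mios, a subunit of the GATOR complex that relays amino acid supply to TOR, an exon of 59 nt went from 88.6% and 89.8% to 98.4% and 97.0%. A retained intron of Rhebl1, a relative of the RHEB GTPase on which TSC2 acts, was 9.91 points higher in NOVA2-overexpressing ECs. Among JNK genes, an exon of 72 nt in Mapk9, which codes for JNK2, was at 8.12% and 7.94% in control ECs and at 13.8% and 13.3% in NOVA2-overexpressing ECs. An exon of 54 nt in Map4k3 was 8.15 points lower and one of 31 nt in Mapk8ip3, a JNK scaffold, 9.17 points lower. In Dok2, a docking protein downstream of tyrosine kinases, an exon of 282 nt was 8.57 points lower. Each of these events had a score of LOW or better in all 4 libraries.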
